A study of Mus musculus with 401 samples.

Results

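The genes described here are the 10 that write, copy, guard and oxidise DNA methylation in germ cells. They were listed by name for their known roles. The rule used no measured value, but the list was made with earlier results of these data known. The maintenance genes are Dnmt1 and Uhrf1, the de novo group is Dnmt3a, Dnmt3b and Dnmt3l, the protectors are Dppa3 and Zfp57, and the oxidases are Tet1, Tet2 and Tet3. All 10 were found among the 41092 genes of the first count table and the 42349 genes of the second.

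DNA methylation is set on the oocyte genome during growth by DNMT3A with its catalytically inactive partner DNMT3L, and is copied after replication by DNMT1, which UHRF1 recruits to hemimethylated CpG sites. The TET enzymes oxidise 5-methylcytosine, and TET3 is the member known for acting in the zygote on maternal stores. DPPA3 (Stella) shields the maternal genome from TET3 and keeps UHRF1 out of the oocyte nucleus, while ZFP57 binds methylated imprinting control regions and holds their methylation through embryonic reprogramming.

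Single fully grown oocytes and the pool of cumulus cells around the same oocyte were profiled by RamDA-seq, a full-length total RNA method, in B6D2F1 (C57BL/6 x DBA/2) mice. In the first set all mice were hyperovulated, and young (2 months), middle (9 months) and old (14 months) mice were fed ad libitum (AL), while CR mice (9 months) were under adult-onset calorie restriction. The second set held hyperovulated AL mice of 2, 4, 9 and 14 months and 2-month mice without hyperovulation (2moNoH). Oocytes were collected at the germinal vesicle stage and held there with IBMX, so all groups share that treatment. The first set gave 16 oocyte and 15 cumulus libraries from 2 young mouse labels, 14 and 15 from 4 middle labels, 16 and 16 from 2 old labels, and 27 and 25 from 3 CR labels. The second set gave 24 and 24 libraries from 5 mice at 2 months, 39 and 40 from 8 at 4 months, 16 and 16 from 4 at 9 months, 16 and 16 from 5 at 14 months, and 32 and 32 from 8 2moNoH mice. The paper counts 3 old mice in the first set, so the label Old1_2 stands for 2 animals, which it does not separate. Fits per mouse label take these 2 animals together, and a fit without Old1_2 leaves out 2 of the 3 old mice. The libraries of a mouse share that animal, so p-values over libraries can be too small, and fits with counts summed per mouse label are given beside them.

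Of 401 libraries, 399 were analysed. In 1 middle complex of the label Middle3 the oocyte library correlated at 0.905 with the mean cumulus profile and 0.656 with the mean oocyte profile, against its label, and both libraries of that complex were left out. Median depth by group was 1986202 to 3578882 counts in oocytes and 854688 to 2019007 in cumulus pools, and both highest medians belonged to CR, so depth and diet cannot be told apart. In the cumulus libraries, 12 of 13 oocyte markers had a median of 0 CPM (the usual depth-scaled count) in every group. The CPM of members are given after TMM scaling within a cell type and set, and those of pathway genes after TMM scaling over the groups compared. Marker levels, summed levels of proliferation genes and pooled CPM use library totals alone, without TMM. In the oocyte libraries the cumulus marker level had group medians of 3.27% to 6.2% of that in cumulus libraries in the first set and 3.36% to 3.64% in the second. Single oocyte libraries reached 14.9% in young, 20.4% in middle, 29.6% in old and 18.4% in CR, against at most 4.53% in the second set. All 12 cumulus markers had a median above 0 in each oocyte group of the first set. In the second set 9 to 11 of them did, and Foxl2 had a median of 0 in each oocyte group. In the cumulus pools, fewer cells of a type and less RNA per cell cannot be told apart.

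The members were spread over more than 3 orders of magnitude in oocytes. Levels of different genes are compared here only as RPKM (reads scaled by depth and by the summed exon length of the gene). In oocytes at 2 months (n = 24), Dnmt1 had a mean of 618 ± 63.8 (SD) RPKM, Zfp57 400 ± 41.4, Uhrf1 297 ± 31.8, Dppa3 160 ± 20.6, Tet3 129 ± 24.3, Dnmt3l 49.9 ± 4.40 and Dnmt3a 18.0 ± 2.05. Dnmt3b (3.90 ± 0.611), Tet2 (0.547 ± 0.172) and Tet1 (0.482 ± 0.176) followed. The last neighbours, Tet2 and Tet1, differed by less than their spread, and Dppa3 and Tet3 by less than the sum of their SDs. In young oocytes of the first set Dppa3 (170 ± 78.2 RPKM) and Tet3 (165 ± 59.1 RPKM) were within their spread of each other, as were Uhrf1 (346 ± 71.3 RPKM) and Zfp57 (321 ± 88.8 RPKM).

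In cumulus cells at 2 months (n = 24) the order was another one. Uhrf1 was highest at 53.9 RPKM on average, followed by Dnmt1 at 31.7, Dnmt3a at 14.1, Tet3 at 9.03, Tet2 at 6.38, Tet1 at 6.26 and Dnmt3b at 2.20 RPKM. Zfp57, Dppa3 and Dnmt3l had group means of at most 0.436, 0.345 and 0.0451 RPKM in any of the 9 cumulus groups, with a median of 0 CPM in each.

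**Figure D1:**
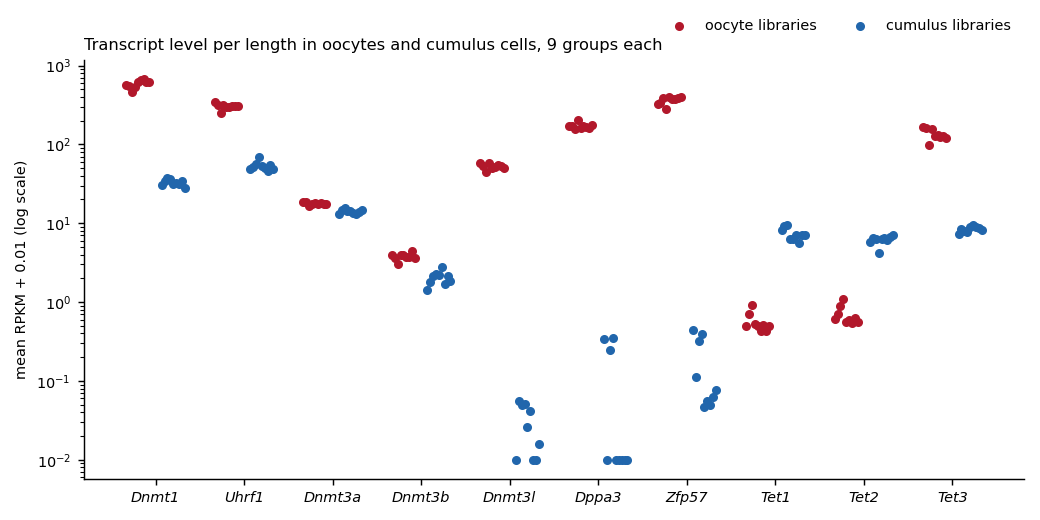
Mean RPKM (plus 0.01, log axis) of each member in the 9 oocyte groups (red points) and the 9 cumulus groups (blue points). 8 of the members stand higher in oocytes, with Dnmt3l, Dppa3 and Zfp57 near the floor in cumulus cells, while Tet1 and Tet2 stand below 1.1 RPKM in oocytes and above 4 RPKM in cumulus cells.

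Oocytes and cumulus cells were compared in young mice and again in 2-month mice of the second set. These fits scaled the libraries of both cell types together, while the CPM printed are scaled within a cell type, or by library totals alone where pooled. The log2 differences between cell types therefore need not match the printed CPM. All 10 members differed in both comparisons by the edgeR quasi-likelihood test at an FDR of 5%, and so did 85.6% of all genes tested in young mice and 88.4% in 2-month mice, so the count alone says little about these genes. With counts summed per mouse label all 10 passed in both comparisons, with the highest edgeR adjusted p at 2.05e-07 in young mice (Dnmt3b) and 5.83e-06 at 2 months (Dnmt3a). Among the members, 8 were higher in oocytes and 2, Tet1 and Tet2, were lower. How many of all genes have library ranges without overlap between the cell types was not counted, so a lack of overlap alone says little.

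The maintenance genes were abundant in both cell types and higher in oocytes. Dnmt1, which encodes the maintenance methyltransferase, lies on chromosome 9 at 20907209-20959888 (minus strand, GRCm38) and had 3254, 4526 and 5629 CPM as the lowest, median and highest of 24 oocyte libraries at 2 months, against 142, 224 and 309 CPM in cumulus libraries. The groups did not overlap, and the log2 difference was 4.63 ± 0.076 (SE, adjusted p = 1.20e-51). Uhrf1 (chromosome 17, 56303321-56323486, plus strand), which encodes the hemimethylated DNA reader, had 936, 1262 and 1492 CPM in oocytes and 132, 228 and 353 CPM in cumulus cells, again without overlap (log2 difference 2.80 ± 0.074, adjusted p = 6.59e-41). In young mice the differences were 4.59 ± 0.18 for Dnmt1 and 3.17 ± 0.14 for Uhrf1.

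The de novo group was split. Dnmt3l (chromosome 10, 78041947-78063622, plus strand), the cofactor without catalytic activity, had 126 to 186 CPM in the 24 oocyte libraries at 2 months and 1 read in all 24 cumulus libraries together, a ratio of pooled CPM of 3057 with a 95% counting interval of 549 to 120720. In the young cumulus libraries it had 0 reads, which makes the level in young oocytes at least 1076-fold higher when the floor is set to 3 counts over the group. Dnmt3a (chromosome 12, 3806007-3914443, plus strand), a catalytic de novo enzyme, had 231, 299 and 358 CPM in oocytes against 125, 230 and 340 CPM in cumulus libraries. These ranges overlapped, and the log2 difference was 0.69 ± 0.074 at 2 months (adjusted p = 6.76e-13) and 0.87 ± 0.15 in young mice. The size of this small difference depended on the scaling. By library totals alone, the ratio of pooled CPM of Dnmt3a was 1.28 at 2 months and 1.45 in young mice. Under the alternatives that kept all mouse labels, its log2 difference in young mice was 0.80 to 1.44. Dnmt3b (chromosome 2, 153649450-153687730, plus strand), the other catalytic enzyme, was low in both cell types, at 20.1 ± 3.36 CPM (SD) in oocytes and 11 ± 5.32 in cumulus cells (log2 difference 1.17 ± 0.14, adjusted p = 4.69e-11).

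The protectors were found in oocyte libraries and hardly at all in cumulus libraries. Dppa3 (chromosome 6, 122626410-122630272, plus strand) had 102, 145 and 170 CPM in oocytes at 2 months and 0 reads in the 24 cumulus libraries, at least 977-fold higher in oocytes with the same floor. In young cumulus libraries 6 reads were assigned to it, a ratio of 439 (95% counting interval 202 to 1196). Zfp57 (chromosome 17, 37001163-37010635, plus strand) had 1277, 1521 and 1920 CPM in oocytes at 2 months and 3 reads in cumulus cells, a ratio of 10345 (3540 to 50164). In young cumulus libraries the pooled Zfp57 level was 0.151% of that in oocytes. The mean oocyte marker level in the same libraries was lower, at 0.00507% (Young1) and 0.0926% (Young2) of that in oocytes. The highest such mean by mouse label in the first set was 0.156%, in CR3. Whether the few reads of these genes in cumulus pools come from oocyte RNA was not tested.

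The oxidases went both ways. Tet3 (chromosome 6, 83362373-83459084, minus strand) had 1662, 2044 and 4205 CPM in oocytes at 2 months and 76.8, 152 and 199 CPM in cumulus cells, with no overlap (log2 difference 4.19 ± 0.086, adjusted p = 1.80e-46). Tet1 (chromosome 10, 62804570-62908996, minus strand) had 1.61, 7.18 and 11.7 CPM in oocytes against 51.7, 96.6 and 117 CPM in cumulus cells (log2 difference -3.33 ± 0.12, adjusted p = 1.41e-34). Tet2 (chromosome 3, 133463679-133545139, minus strand) had 5.36, 8.29 and 15.6 CPM in oocytes against 49.0, 104 and 152 CPM (log2 difference -3.19 ± 0.12, adjusted p = 2.18e-33). Neither Tet1 nor Tet2 overlapped between the cell types, and the share of all genes without overlap was not counted. Over the 9 groups the pooled level in oocytes was 5.90% to 9.39% of that in cumulus cells for Tet1 and 7.74% to 26% for Tet2, beside the cumulus marker level given above, and the part of cumulus RNA in these low oocyte levels was not tested.

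Windows of 250 bases upstream of annotated starts were read for 9 of the 10 members (18 windows, RefSeq, GRCm38.p6), and 5 are shown, 2 of Dnmt1 because its starts differ in CpG content, 1 of Zfp57 as a gene nearly absent from cumulus cells, and those of Tet1 and Tet2 as the members lower in oocytes. They are written 5′ to 3′ on the gene's strand in lower case with each CpG in capitals.
Dnmt1, chr9:20959889-20960138, minus strand: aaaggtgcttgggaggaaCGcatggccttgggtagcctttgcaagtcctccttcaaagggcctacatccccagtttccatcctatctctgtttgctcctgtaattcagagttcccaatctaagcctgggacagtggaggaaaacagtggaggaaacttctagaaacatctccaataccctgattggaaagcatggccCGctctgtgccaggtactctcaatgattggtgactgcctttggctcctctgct
Dnmt1, chr9:20952624-20952873, minus strand: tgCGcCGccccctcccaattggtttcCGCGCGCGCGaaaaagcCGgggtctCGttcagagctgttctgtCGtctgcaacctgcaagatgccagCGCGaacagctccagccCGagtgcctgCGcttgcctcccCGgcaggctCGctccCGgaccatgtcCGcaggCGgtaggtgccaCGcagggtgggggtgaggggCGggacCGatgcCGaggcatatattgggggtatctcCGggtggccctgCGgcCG
Zfp57, chr17:37003416-37003665, plus strand: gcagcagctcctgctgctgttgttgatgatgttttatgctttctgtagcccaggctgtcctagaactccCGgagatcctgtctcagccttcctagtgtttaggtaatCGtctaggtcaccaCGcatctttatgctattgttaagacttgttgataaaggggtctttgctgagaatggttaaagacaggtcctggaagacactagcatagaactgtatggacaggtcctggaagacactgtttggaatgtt
Tet1, chr10:62887325-62887574, minus strand: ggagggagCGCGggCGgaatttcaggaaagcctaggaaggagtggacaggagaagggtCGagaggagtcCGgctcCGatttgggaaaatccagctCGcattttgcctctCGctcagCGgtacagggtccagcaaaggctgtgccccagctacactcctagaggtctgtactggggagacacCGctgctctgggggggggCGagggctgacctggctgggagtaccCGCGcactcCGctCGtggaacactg
Tet2, chr3:133544391-133544640, minus strand: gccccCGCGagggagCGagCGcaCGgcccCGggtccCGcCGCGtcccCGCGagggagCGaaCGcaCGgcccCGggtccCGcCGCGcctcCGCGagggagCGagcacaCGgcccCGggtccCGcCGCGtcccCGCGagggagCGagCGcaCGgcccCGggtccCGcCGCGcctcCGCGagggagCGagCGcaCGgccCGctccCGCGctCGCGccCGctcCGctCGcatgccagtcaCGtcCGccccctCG

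The first Dnmt1 window held 2 CpG sites and the second 26, and Dnmt1 is known from textbooks to use a start of its own in growing oocytes. The Zfp57 window shown held 3 CpG sites, and its 2 other windows held 6 and 7. The Tet1 window held 15 and the Tet2 window 51, and the median over 32851 windows of 27025 genes was 6. Windows not shown of members higher in oocytes held from 3 (Dnmt3l) to 40 (Dnmt3a) CpG sites. At least 51 CpG sites were found in 0.067% of all windows. Counts per gene cannot tell these starts apart. The words TAATTG and TGATTG, bound by the oocyte homeodomain factors NOBOX and LHX8, were searched on both strands. TAATTG was in 0 of the 18 member windows and in 7.17% of all windows, and TGATTG was in 3, the first Dnmt1 window with 2 copies and both Uhrf1 windows with 1 each, and in 12.7% of all windows.

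The question of the first set was what changes in oocytes over reproductive life. From young to middle, none of the 10 members passed edgeR's test (1 at an unadjusted p below 0.05, 0 by DESeq2). Of all 22958 genes, 0% passed, with 1783 at an unadjusted p below 0.05 and 25 called by DESeq2. From young to old, 2 of the 10 members fell, Tet3 and Dnmt3l, beside 7.39% of all genes, and 5 were at an unadjusted p below 0.05. DESeq2 called 4, these and Uhrf1 and Tet1, and 2808 genes in all, against 1707 by edgeR. From middle to old, 0 of 10 members and 0% of all genes passed edgeR's test, with 4 members and 4466 genes at an unadjusted p below 0.05, and DESeq2 called Tet3 and 672 genes in all. The median log2 difference over all genes was 0.11 between old and young, and -0.31 over the members.

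Tet3 had 360, 3171 and 4022 CPM as the lowest, median and highest young oocyte library, 892, 2773 and 4172 in middle and 310, 1469 and 3130 in old. The ranges overlapped, but the old median lay below those of the other two groups. The log2 difference between old and young was -0.83 ± 0.26 (edgeR adjusted p = 0.0425). With counts summed per mouse label it was -0.82 and the adjusted p was 0.553.

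Dnmt3l had 139, 171 and 236 CPM in young, 123, 164 and 199 in middle and 36.9, 127 and 186 in old oocytes. Old libraries reached below every young one while their upper end overlapped. The log2 difference between old and young was -0.45 ± 0.14 (adjusted p = 0.0475), and per mouse label the adjusted p was 0.594.

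Both calls lay near the threshold and were lost in 3 of the 4 fits that left out 1 mouse label. The fit without Old1_2 leaves out more than 1 animal. With no filter on low counts neither passed (edgeR adjusted p = 0.0516 for Tet3 and 0.0574 for Dnmt3l). Mean Tet3 was 3255 and 2660 CPM in Young1 and Young2, 1313 in Old1_2 (11 libraries) and 2198 in Old3 (5 libraries), and mean Dnmt3l was 186, 171, 115 and 158 CPM in that order. Without Old1_2 the log2 difference of Tet3 was -0.35 (adjusted p = 0.926) and that of Dnmt3l -0.14 (adjusted p = 0.916). Neither passed without Young1, where Tet3 was at -0.74 (adjusted p = 0.154) and Dnmt3l at -0.41 (0.155), or without Young2, where they were at -1.08 (0.171) and -0.58 (0.260), so the differences shrank most without Old1_2. Without Old3, 5 members passed, Tet3 at -1.10, Dnmt3l at -0.61, Uhrf1 at -0.76, Dnmt1 at -0.64 and Tet1 at 0.96. In the comparison with middle mice, leaving out Old3 also gave 5 calls, Tet3 at -1.08, Uhrf1 at -0.63, Dnmt1 at -0.59, Dnmt3l at -0.50 and Dnmt3a at -0.37.

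On average, the oocyte libraries of Old1_2 also stood above those of Old3, Young1 and Young2 in other measures. Their cumulus marker level was 10.1% of that in cumulus libraries on average, against 4.87% in Old3, 4.81% in Young1 and 4.83% in Young2. Their share of mitochondrial counts was 1.87% on average and up to 6.75%, against means of 0.656% in Old3 and 0.675% in Young1. High shares were not limited to Old1_2. Young2 had 1.08% on average and up to 5.32%, and CR1 had 1.72% on average. With the cumulus marker level as a covariate the log2 difference was -0.41 for Tet3 (adjusted p = 0.444) and -0.29 for Dnmt3l (adjusted p = 0.347). Across the 16 old oocyte libraries the level had a Pearson r with the mitochondrial share of -0.60 for Tet3, -0.84 for Dnmt3l and -0.77 for Dnmt1, and without the 2 libraries farthest from the median share r was -0.60, -0.69 and -0.65. Across the 16 young ones r was -0.92 for both Tet3 and Dnmt1, which rested on 2 libraries, since without these it was -0.37 and -0.44. These libraries share mice and their shares are fractions of the same totals, and the part of these measures in the difference was not tested.

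Uhrf1 (log2 difference -0.53 ± 0.18, adjusted p = 0.0596) and Tet1 (0.80 ± 0.26, adjusted p = 0.0535) fell short of the threshold in old against young oocytes, though Uhrf1 passed in edgeR with the size factors of DESeq2 (RLE) in place of TMM (adjusted p = 0.0478). Uhrf1 had 580, 1499 and 1971 CPM in young and 474, 967 and 1681 in old oocytes, and Tet1 had 2.19, 7.25 and 14.9 against 3.22, 11.4 and 29.3 CPM. Both pairs of ranges overlapped. Dppa3 (146 ± 50.5 CPM in young, 132 ± 60.9 in old, SD) and Zfp57 (1189 ± 229 and 1376 ± 325 CPM) did not pass.

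**Figure D2:**
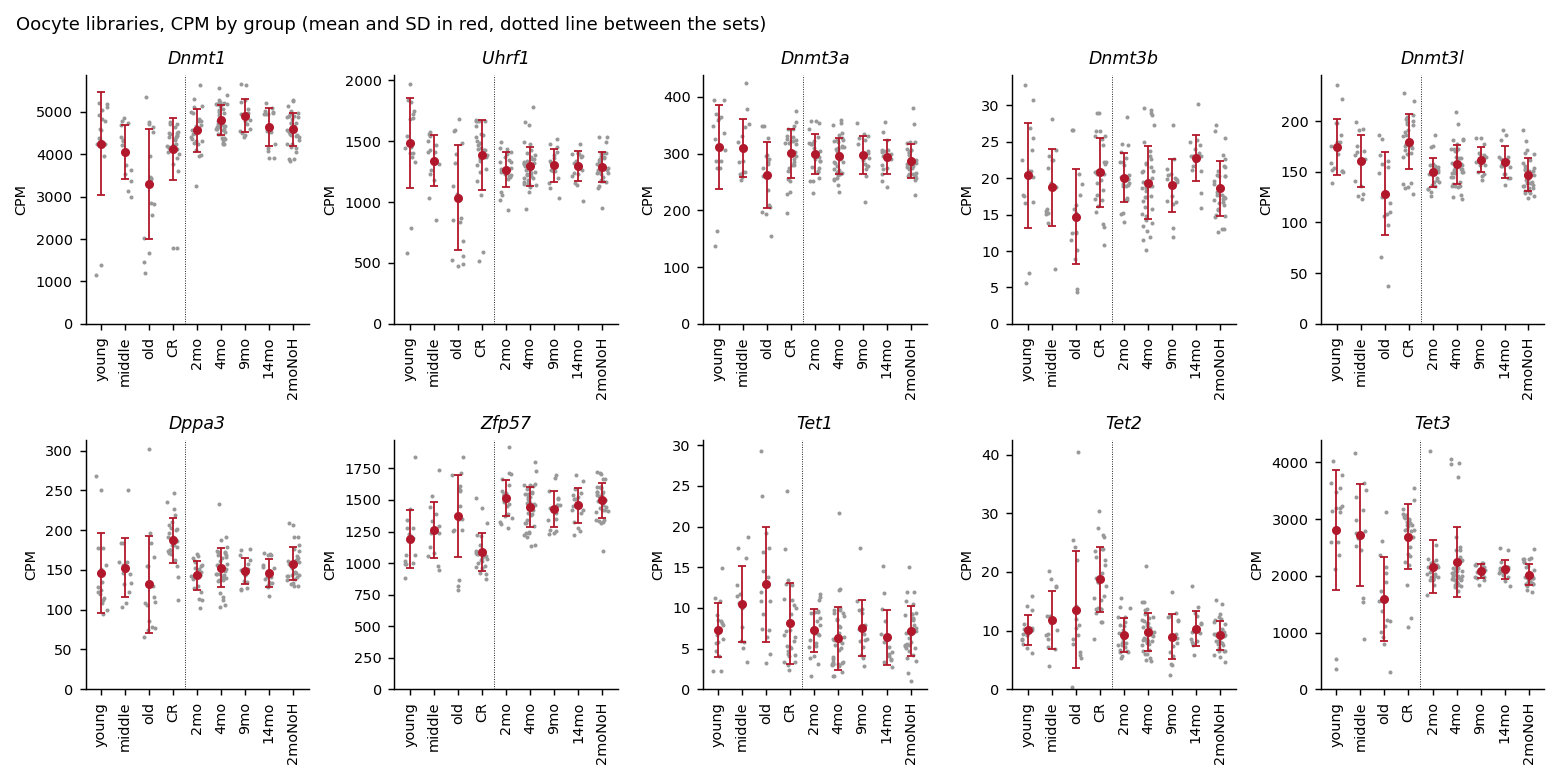
CPM of each member in every oocyte library (grey points) with the mean and SD of each group (red), the first set left of the dotted line and the second right of it. Tet3, Uhrf1, Dnmt1 and Dnmt3l spread wider in the young, middle and old groups of the first set than in the groups of the second. In CR the SD of Tet3 (570 CPM) lies below that at 4 months (618 CPM). The old median of Tet3 is 1469 CPM against 3171 in young, and its group medians in the second set lie between 1975 and 2104.

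The second set followed age with more mice. None of the 10 members passed edgeR's test in oocytes at 4, 9 or 14 months against 2 months (1, 2 and 2 at an unadjusted p below 0.05, 0 by DESeq2 in each), beside 0.0126%, 0.16% and 1.15% of all genes. For the 7 members with more than 100 CPM in oocytes (Dnmt1, Uhrf1, Dnmt3a, Dnmt3l, Dppa3, Zfp57 and Tet3), the 95% intervals of all 3 comparisons lay between -0.18 and 0.21 on the log2 scale. These intervals take libraries as units, so they can be too narrow for differences between mice.

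At 14 months Tet3 had 1812, 2090 and 2487 CPM against 1662, 2044 and 4205 at 2 months, and Dnmt3l had 137, 157 and 191 against 126, 149 and 186 CPM. These ranges overlapped almost fully. Dnmt1 was at 4567 ± 507 CPM (SD, n = 24) at 2 months, 4805 ± 362 (n = 39) at 4, 4902 ± 388 (n = 16) at 9 and 4630 ± 447 (n = 16) at 14 months. Uhrf1 stayed between means of 1266 and 1302 CPM and Zfp57 between 1429 and 1516 CPM over these ages.

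The difference between 14 and 2 months was compared between the sets in 1 model. It differed in oocytes for 4 of 10 members, Dnmt3l (second minus first set 0.54 ± 0.13, adjusted p = 0.0150), Dnmt3b (0.67 ± 0.20, adjusted p = 0.0382), Uhrf1 (0.56 ± 0.17, adjusted p = 0.0413) and Tet3 (0.79 ± 0.25, adjusted p = 0.0420), beside 5.24% of all genes. The median over all genes was -0.11. With counts summed per mouse label none of the 4 passed (adjusted p = 0.0602 to 0.122), and without Old1_2 none passed (Tet3 at 0.34, Dnmt3b at 0.50, Dnmt3l at 0.26 and Uhrf1 at 0.17). Without Young1 none passed either, at differences of 0.71 for Tet3 (adjusted p = 0.129), 0.70 for Dnmt3b (0.0789), 0.51 for Dnmt3l (0.0639) and 0.50 for Uhrf1 (0.131), which lay closer to those with all labels. With no filter on low counts Tet3 (adjusted p = 0.0522) and Uhrf1 (0.0525) did not pass. Tet1, lower in the second set, missed the threshold (-1.005 ± 0.325, adjusted p = 0.0517) but passed with RLE size factors (-1.02, adjusted p = 0.0495) and by DESeq2 (-1.02, adjusted p = 0.0239). Over the 14 fits that each left out 1 mouse label, Dnmt3l was lost in these 2, while Tet3 was lost in 10 and Dnmt3b and Uhrf1 in 11 each (adjusted p = 0.0502 to 0.774). Without Old3, 6 members passed, Dnmt1 (0.65) and Tet1 (-1.17) in addition, Tet1 also passed without 14mo37 (-1.17), and Zfp57 passed without Young2 (-0.46).

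CR oocytes were compared with middle oocytes of the same age on AL diet. Of the 10 members, 3 changed, Tet2 and Dppa3 upward and Zfp57 downward, which as a share lies near the 30% of all genes called. Tet2 had 3.89, 10.6 and 20.2 CPM in the 14 middle libraries and 8.63, 18.3 and 30.3 CPM in the 27 CR libraries. The ranges of the libraries overlapped, but the means by mouse label did not, at 8.55 to 13.6 CPM in the 4 middle labels and 18.0 to 20.5 CPM in the 3 CR labels. How many of all genes separate by label in this way was not counted, so the separation alone says little. The log2 difference was 0.67 ± 0.16 (edgeR adjusted p = 0.00116), and with counts summed per mouse label it was 0.81 (adjusted p = 0.0165). Tet2 passed in each of the 7 fits that left out 1 mouse label, at 0.64 to 0.77, and with the cumulus marker level as a covariate it was 0.74 (adjusted p = 0.00027). The gene Gm42567 runs antisense within Tet2, and whether the counting used strand is not given in the sources used here.

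Dppa3 had 104, 148 and 251 CPM in middle and 112, 186 and 246 CPM in CR oocytes. The ranges coincided and the median was higher in CR (log2 difference 0.30 ± 0.089, adjusted p = 0.00821), but per mouse label the adjusted p was 0.245. Without Middle4 it was 0.0508 and without CR3 0.144. Zfp57 had 948, 1248 and 1740 CPM in middle and 871, 1060 and 1515 CPM in CR oocytes (log2 difference -0.22 ± 0.067, adjusted p = 0.0104, per mouse label 0.455). It was lost without Middle2 (adjusted p = 0.182), CR2 (0.0626) or CR3 (0.0598). With the left-out complex returned to the fit, neither Dppa3 (adjusted p = 0.104) nor Zfp57 (0.730) passed, while Tet1 did (log2 difference -0.72, adjusted p = 0.0412). Without Middle1, Dnmt3l passed too (0.24, adjusted p = 0.0247).

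No other member passed in CR oocytes. Dnmt1 was at 4050 ± 640 CPM (SD) in middle and 4116 ± 726 in CR, Uhrf1 at 1339 ± 212 and 1385 ± 288, Dnmt3a at 311 ± 51.3 and 301 ± 42.7, and Tet3 at 2721 ± 892 and 2689 ± 570 CPM.

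**Figure D3:**
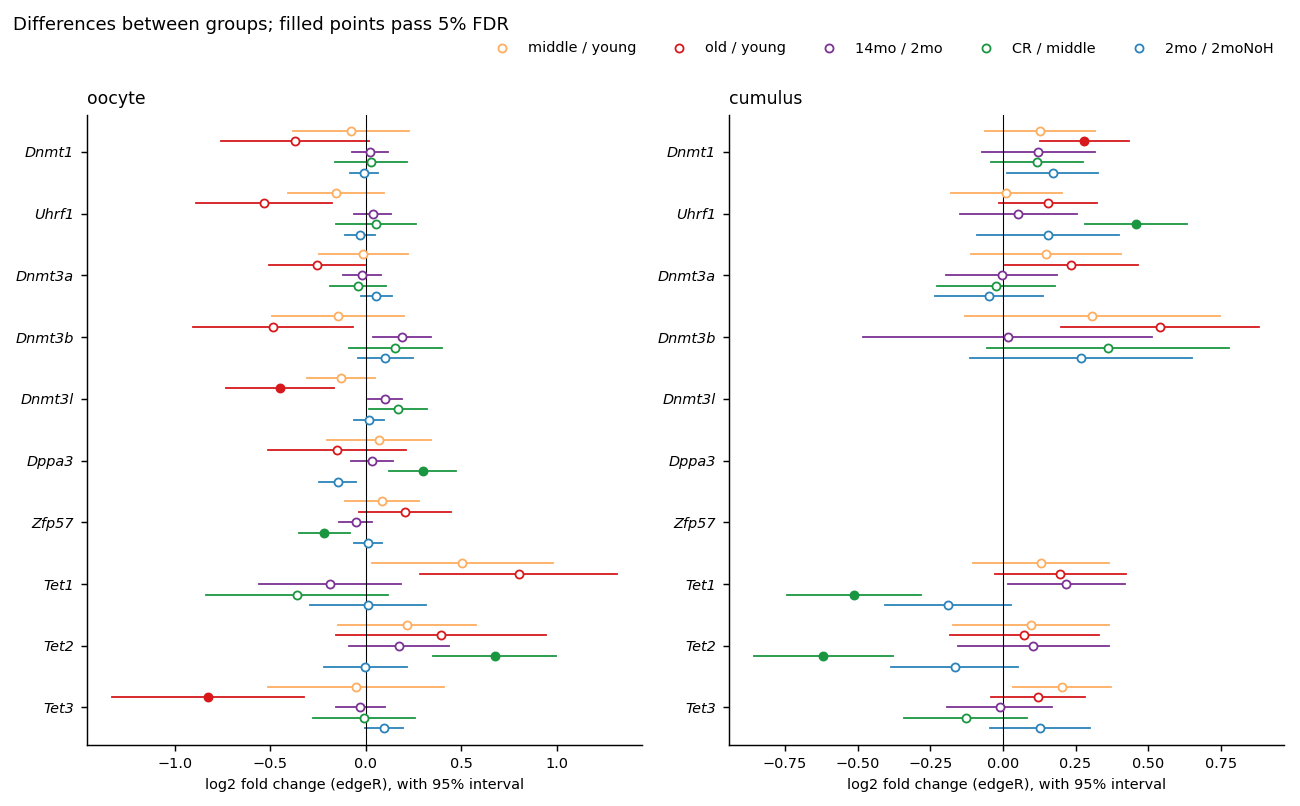
The edgeR log2 fold changes of the members with 95% intervals in oocytes (left) and cumulus cells (right) for 5 comparisons, drawn filled where the FDR is below 5%. In oocytes the old / young points of Tet3 (-0.83) and Dnmt3l (-0.45) and the CR / middle points of Tet2 (0.67), Dppa3 (0.30) and Zfp57 (-0.22) are filled, and Dnmt3l, Dppa3 and Zfp57 are not drawn for cumulus cells, where they were near 0.

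In cumulus cells, CR changed 3 of the 8 members tested, beside 3.58% of all genes. Uhrf1 rose, and Tet1 and Tet2 fell. Uhrf1 had 154, 215 and 337 CPM in 15 middle libraries and 176, 287 and 402 CPM in 25 CR libraries (log2 difference 0.46 ± 0.090, edgeR adjusted p = 0.00135). Tet2 had 69.0, 96.3 and 164 CPM in middle and 31.3, 69.4 and 101 CPM in CR (-0.62 ± 0.12, adjusted p = 0.00142). Tet1 had 88.1, 141 and 183 CPM in middle and 45.0, 92.5 and 137 CPM in CR (-0.51 ± 0.12, adjusted p = 0.00697). The ranges of the libraries overlapped for each.

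By mouse label, the means of Uhrf1 (182 to 241 CPM in middle, 281 to 311 in CR), of Tet1 (130 to 183 and 92.9 to 105 CPM) and, by a narrow margin, of Tet2 (89.9 to 148 and 63.9 to 89.5 CPM) did not overlap. The share of all genes with such separate label means was not counted here either. With counts summed per label none passed (adjusted p = 0.368, 0.348 and 0.544), and Tet2 was lost without Middle1 (-0.39, adjusted p = 0.0727). Of 15 proliferation genes, 4 were higher in CR and 0 lower, and their summed level by mouse label was 3498 to 3790 CPM in CR and 2727 to 3604 CPM in middle. The part of cycling cells in the Uhrf1 difference was not tested.

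The change of Tet2 under CR thus had opposite signs in the 2 cell types. The difference between them was tested in 1 model and was 1.20 ± 0.21 for Tet2 (adjusted p = 1.05e-05) and -0.50 ± 0.14 for Uhrf1 (adjusted p = 0.0114), and 2 of 10 members passed beside 12.8% of all genes, whose median was -0.13. Neither passed with counts summed per mouse label (adjusted p = 0.123 and 1.0). Uhrf1 was also lost without Middle1 (adjusted p = 0.136), Middle4 (0.0533) or CR2 (0.0648), while Tet2 kept its call in each of the 7 fits without 1 mouse label.

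**Figure D4:**
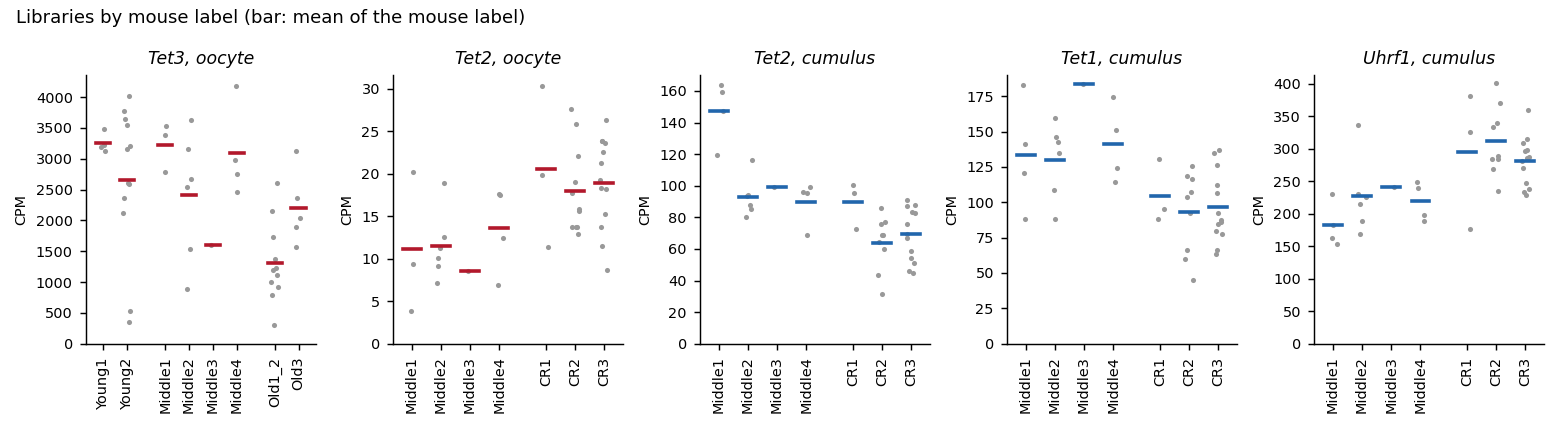
Single libraries (grey points) and means (bars) by mouse label for Tet3 in oocytes over age and for Tet2 in oocytes and Tet2, Tet1 and Uhrf1 in cumulus cells under CR, in CPM. For Tet3 the bar of Old1_2 (1313 CPM) lies below that of Old3 (2198 CPM), and for Tet2 the 3 CR bars lie above the middle bars in oocytes and below them in cumulus cells.

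Cumulus cells over age gave few calls among the members. From young to middle 0 of 8 passed edgeR's test (2 at an unadjusted p below 0.05, 0 by DESeq2), beside 1.46% of all genes. From young to old 1 of 8 passed, Dnmt1, beside 3.95% of all genes. Dnmt1 had 170, 217 and 340 CPM in young and 220, 285 and 322 CPM in old cumulus libraries, ranges that overlapped (log2 difference 0.28 ± 0.078, adjusted p = 0.0348, per mouse label 0.610). The call was lost with no filter on low counts (adjusted p = 0.0535) and without Young2 (adjusted p = 0.712), Old1_2 (0.198) or Old3 (0.169), and without Old3 Dnmt3b passed (0.67, adjusted p = 0.0470). From middle to old 0 of 8 passed (0 at an unadjusted p below 0.05, 0 by DESeq2), beside 0.0433% of all genes.

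In the second set 0 of 8 members passed edgeR's test in cumulus cells at 4 months, 0 of 7 at 9 months and 0 of 7 at 14 months against 2 months (0, 0 and 1 at an unadjusted p below 0.05, 0 by DESeq2 in each). The shares of all genes were 0.519%, 1.93% and 1.7%. Dnmt1 was at 232 ± 44.9 CPM (SD) at 2 months and 249 ± 60.5 at 14 months, where its means lay apart by less than the spread between libraries. Between the sets, 0 members differed in the change from 2 to 14 months (0 at an unadjusted p below 0.05, 0 by DESeq2), beside 0.803% of all genes.

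**Figure D5:**
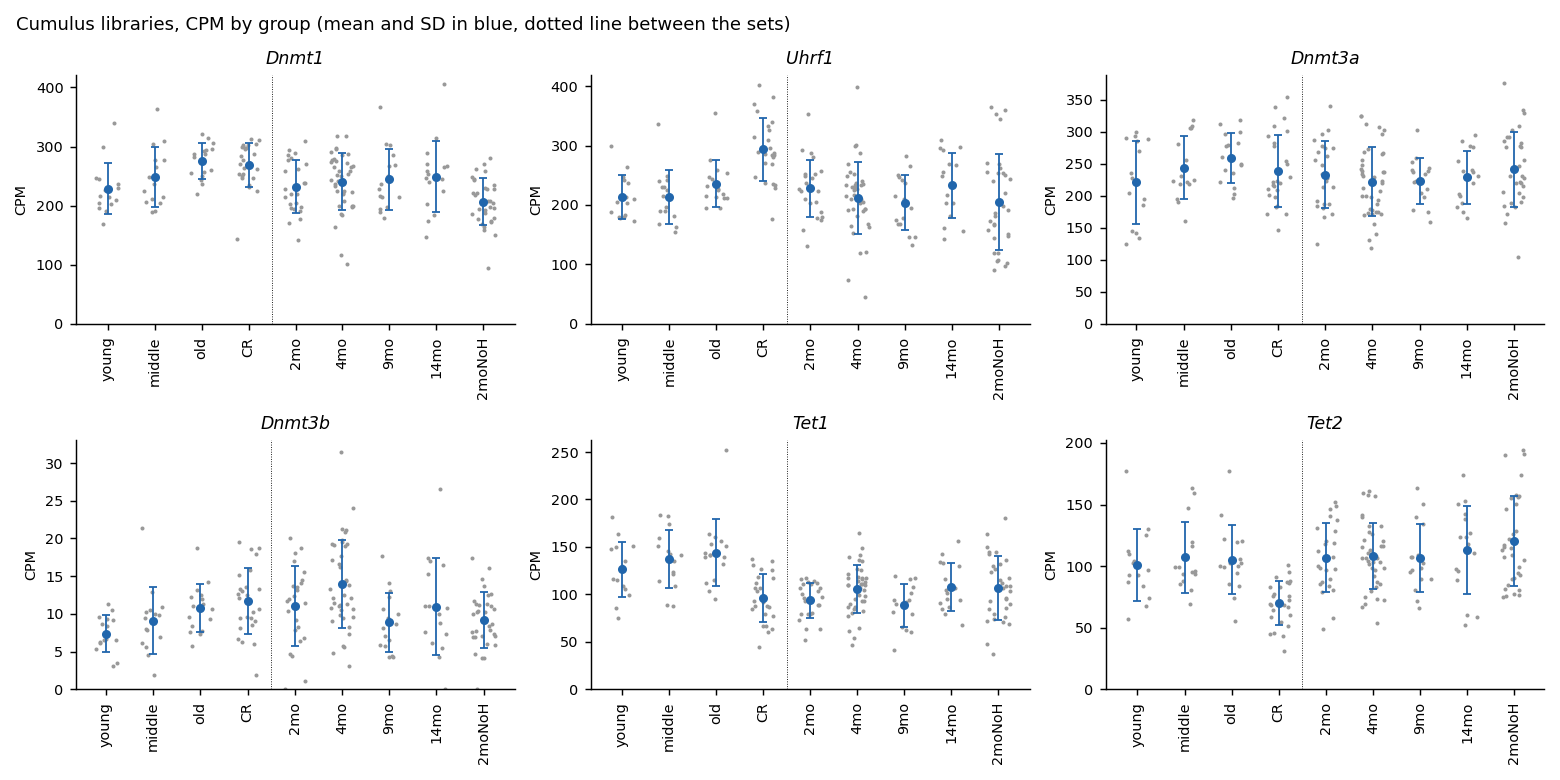
CPM of 6 members in every cumulus library (grey points) with the mean and SD of each group (blue), with the sets divided by the dotted line. In the CR group Tet1 (median 92.5 CPM) and Tet2 (69.4 CPM) sit below the middle group (141 and 96.3 CPM), and Uhrf1 (287 CPM) above it (215 CPM).

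Hyperovulation was examined by comparing 2-month mice with 2moNoH mice. In oocytes 0 of 10 members passed edgeR's test (1 at an unadjusted p below 0.05, Dppa3, and 0 by DESeq2), beside 0.0299% of all genes. Dppa3 had 102, 145 and 170 CPM with and 129, 157 and 209 CPM without hyperovulation (log2 difference -0.15 ± 0.050, adjusted p = 0.425). In cumulus cells 0 of 8 passed (1 at an unadjusted p below 0.05, Dnmt1, and 0 by DESeq2), although 13.2% of all genes did. Dnmt1 was at 232 ± 44.9 CPM (SD, n = 24) with and 206 ± 39.7 (n = 32) without hyperovulation (0.17 ± 0.080, adjusted p = 0.158), and Uhrf1 at 228 ± 48.4 and 205 ± 80.5 CPM.

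Of the 15 proliferation genes, 12 were higher in cumulus cells after hyperovulation in the same comparison. Leaving out the mouse 2moNoH6 brought Dnmt1 (0.23, adjusted p = 0.0375) and Uhrf1 (0.32, adjusted p = 0.0389) past the threshold, and leaving out 2mo35 brought Dnmt1 past it (0.23, adjusted p = 0.0488). The response to hyperovulation differed between the cell types for 0 of 10 members (1 at an unadjusted p below 0.05, 0 by DESeq2) and for 4.07% of all genes.

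A list of 47 further genes of the pathway (partners of DNMT1 and UHRF1, other methyltransferases, methyl-CpG readers, co-factors of zinc finger repressors, base excision factors, histone enzymes and methyl donor enzymes) was followed beside the members. In CR oocytes 21 of 47 passed, 14 higher and 7 lower, beside the 30% of all genes. The largest by the rule used were Zfp445, an imprint-binding zinc finger repressor (30.8 ± 7.08 CPM in middle, 70.1 ± 10.7 in CR, log2 difference 1.18 ± 0.092, adjusted p = 5.52e-14), Zbtb33, the reader Kaiso (63.2 ± 12.4 and 121 ± 19.3 CPM, 0.93 ± 0.083), and Ogt, the O-GlcNAc transferase that binds TET proteins (177 ± 21.1 and 327 ± 64.0 CPM, 0.89 ± 0.086). These 3 also passed with counts summed per mouse label (adjusted p = 0.00373, 0.00335 and 0.00238).

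In old against young oocytes 5 of 47 passed, 3 higher and 2 lower, beside 7.39% of all genes. The lower ones were Trim28, the co-repressor that ZFP57 recruits (530 ± 150 CPM in young, 332 ± 138 in old, -0.68 ± 0.19, adjusted p = 0.0318), and Smug1, a uracil glycosylase (115 ± 35.6 and 72.3 ± 31.3 CPM, -0.67 ± 0.20). Hells, a chromatin remodeller needed for DNA methylation, was among the higher ones (32 ± 6.01 and 43.3 ± 8.34 CPM, 0.43 ± 0.11). In the second set Zbtb33 was higher at 9 months (0.29 ± 0.058) and 14 months (0.34 ± 0.064), and Ogt at 14 months (0.21 ± 0.057). These were the only calls among 46 tested, beside 0.16% of all genes at 9 months and 1.15% at 14 months. None of the 6 calls named for old and second-set oocytes held with counts summed per mouse label.

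In cumulus cells 9 of 47 passed with hyperovulation, 7 higher and 2 lower, beside 13.2% of all genes. Gadd45a was at 31.2 ± 31 CPM without and 9.45 ± 3.71 with hyperovulation (-1.71 ± 0.30, adjusted p = 4.64e-05) and Gadd45b at 33.4 ± 27.7 and 14.0 ± 8.82 CPM (-1.25 ± 0.27), both stress-response genes tied to DNA demethylation. Shmt2, a mitochondrial enzyme of one-carbon metabolism, was at 67.4 ± 34.2 and 137 ± 43.2 CPM (1.02 ± 0.16). These 3 passed per mouse too (adjusted p = 0.0285, 0.0453 and 0.0320). In CR cumulus cells Ogt was lower (-0.47 ± 0.082) and Gadd45g higher (1.0 ± 0.30), the 2 calls among 47 genes there beside 3.58% of all genes, and both were lost with counts summed per mouse label (edgeR adjusted p = 0.579 and 0.442). Over age in cumulus cells, 4 of 46 passed from young to old (Hells at 0.32 ± 0.091, Ehmt1 at 0.29 ± 0.066 and Nsd1 at 0.23 ± 0.066 among the 3 higher), 2 from young to middle, and 1 each at 9 months (Uhrf2, a relative of UHRF1, at -0.31 ± 0.085) and 14 months (Mat2a, which makes S-adenosylmethionine, at -0.36 ± 0.085). The shares of all genes were 3.95% from young to old, 1.46% from young to middle, 1.93% at 9 months and 1.7% at 14 months. None of the 5 genes named here over age passed with counts summed per mouse label (edgeR adjusted p = 0.288 to 0.530).

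The genes whose mean level by mouse was most like that of each member were sought over the 30 mice of the second set, among 9441 genes in oocytes and 10469 in cumulus cells with at least 8 CPM. In oocytes Tet3 went with Alg10b (Pearson r = 0.92) and Lrp5 (0.91), Zfp57 with D6Ertd527e (0.88), Uhrf1 with Lpin2 (0.84), Dnmt1 with Gdf9 (0.83) and Dppa3 with Usp15 (0.82). In cumulus cells Uhrf1 went with Mcm5 (0.93) and Mcm4 (0.89), Dnmt1 with Mcm2 (0.88) and Mcm5 (0.86), Dnmt3a with BC034090 (0.83), Tet2 with Gpatch8 (0.81) and Tet3 with Kmt2d (0.81), where the Mcm genes encode the replicative helicase. Among the members themselves Uhrf1 and Dnmt1 had r = 0.77 in cumulus cells, and in oocytes Dnmt1 and Zfp57 had r = -0.75, Uhrf1 and Zfp57 -0.68 and Dnmt3a and Dppa3 -0.65. These are descriptions over mice of 5 groups whose values share libraries and scaling.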

How the data were processed

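The authors aligned RamDA-seq reads with HISAT2 2.0.5 and counted them per gene with featureCounts 1.5.1 on GRCm38 (GENCODE vM15), and deposited expected counts, not whole because reads with several matches were counted (36.8% and 35.1% of non-zero values in the 2 sets), and RPKM. Dppa3 (87.3% of its non-zero counts in the first set not whole) and Uhrf1 (67.1%) share reads with other loci. So do the other members to a lesser degree, among them Dnmt3b (49.7%), Dnmt3a (45.9%), Dnmt3l (41.6%) and Tet3 (30.1%), down to Zfp57 (1.98%). Whether strand was used is not given in the sources used here. The deposited RPKM of CR libraries could be recalculated from the counts within 1% for 7.89% of values, against 100% for AL, so RPKM were recomputed from counts and the deposited RPKM were used in 1 alternative.

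Counts were rounded, genes with a count in at least 5 compared libraries were kept, and groups were compared in R 4.3.3 with edgeR 4.0.16 (TMM, quasi-likelihood F-test, Benjamini-Hochberg FDR of 5% over all genes tested), with libraries as units as in the study. Alternatives used DESeq2 1.42.0, its size factors (RLE), no filter, counts summed per mouse label, all deposited libraries, the library prefix or the cumulus marker level as a covariate, limma 3.58.1 on log2 of deposited RPKM plus 0.1, each mouse label left out, and, where oocytes were compared with the cumulus cells of the same complex, the complex as a block, since the labels pair these libraries. Scripts were tested on simulated data. Counting intervals and floors (95%, 3 counts) cover counting error only. Coordinates are from GENCODE vM21, and promoter windows from RefSeq.

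The members, the 47 pathway genes and the marker lists were chosen with earlier results of these data known. The pathway genes named are up to 3 per comparison with the largest change among those that passed, at 8 CPM or more. In the fits the rows for Dnmt3l and Dppa3 did not pass the filter in cumulus libraries, nor did Zfp57 at 9 and 14 months.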

Additional observations from a re-analysis of the deposited data

Results flagged for a closer look

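The change under calorie restriction differed between oocytes and cumulus cells for Tet2, with 1.20 more on the log2 scale in oocytes, and for Uhrf1, with -0.50 in the same direction of subtraction, each past 5% FDR by an edgeR interaction term. The change from 2 to 14 months in oocytes differed between the sets, second minus first on the log2 scale, for Dnmt3l by 0.54, for Uhrf1 by 0.56, for Dnmt3b by 0.67 and for Tet3 by 0.79. None of these 6 passed with counts summed per mouse label, and the 4 differences between the sets did not pass without Old1_2.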

How the results depend on the processing

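The number of members called (main value in brackets) moved as follows. In oocytes, old against young (2) gave 0 with no filter on low counts, 3 with RLE, 4 with DESeq2, 0 with counts summed per mouse label, 0 with the cumulus marker level as a covariate and 0 to 5 with 1 mouse label left out. Old against middle (0) gave 1 with DESeq2 and 0 to 5 with a label left out, and CR against middle (3) gave 2 with all deposited libraries, 1 per mouse label and 1 to 4 with a label left out. In cumulus cells, old against young (1) gave 0 with no filter, 0 per mouse label and 0 to 1 with a label left out, CR against middle (3) gave 0 per mouse label and 2 to 3 with a label left out, and hyperovulation (0) gave 0 to 2 with a mouse left out. The CR difference between cell types (2) gave 0 per mouse label and 1 to 2 with a label left out, and the oocyte difference between sets (4) gave 2 with no filter, 5 with RLE and 5 with DESeq2 (Tet1 in addition, with the opposite sign), 0 per mouse and 0 to 6 with a label left out. No called member changed sign under any alternative run. The block for the complex changed no call of a member. Of all genes called in CR cumulus cells 57.4% were higher, against 44.9% with RLE and 49.4% with DESeq2, and of those in the CR difference between cell types 33.7%, against 45.9% and 46.7%. Members under about 20 CPM (Tet1, Tet2 and Dnmt3b in oocytes, Dnmt3b in cumulus cells) rest on few reads per library, and depth limits what can be seen for them.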

Other observations

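In the second set the Tet3 level had a gap among the 127 oocyte libraries. Of these, 5 libraries (1 of the mouse 2mo34, 2 of 4mo5, 1 of 4mo28 and 1 of 4mo29) had 3748 to 4205 CPM, and the next had 2685 CPM. In the same 5 libraries Dppa3 was at 102 to 121 CPM, Zfp57 at 1135 to 1325 CPM and Dnmt1 at 5153 to 5402 CPM, beside group medians of 141 to 157, 1448 to 1521 and 4526 to 4853 CPM. These libraries were picked for their Tet3 level after the values were seen, and no test was made.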
